A study of Homo sapiens with 32 samples.

Results

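The cytoplasmic poly(A) RNA of HEK293T cells lacking IGF2BP3 was compared with that of control cells. The comparison took every cytoplasmic library labelled as IGF2BP3 knockout (4) and every cytoplasmic control library (4), 8 of the 32 libraries of the series. HEK293T is an established human embryonic kidney line. The study knocked out IGF2BP1, IGF2BP2 or IGF2BP3 in it and sequenced cytoplasmic, nuclear and total RNA, and its title concerns innate immune signalling in leukemia stem cells. The knockout was made with non-integrating plasmids carrying 3 guide RNAs and a GFP reporter, followed by sorting of single cells and a check of the colonies for the protein. Each knockout is 1 clone, so its libraries are repeat measurements of that clone, and effects of the knockout and other properties of the clone cannot be told apart. The control received a guide that targets no gene. It was made alongside, and the labels do not say whether it is a clone or a pool, or the same cells in every batch. No group received a treatment.

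Control libraries 1 to 4 belonged to batches 1 to 4. Knockout library 1 belonged to batch 3, library 2 to batch 4, and libraries 3 and 4 to batch 5, which holds no control. The fitted fold changes therefore rest on batches 3 and 4, where both genotypes are present. In batch 5 the batch and the genotype cannot be told apart. A gene is called here "held" when 3 things were true: it passed the test at an adjusted p under 0.05 (edgeR's quasi-likelihood test with a batch term and Benjamini-Hochberg adjustment), both same-batch pairs (knockout 1 with control 3, knockout 2 with control 4) had the sign of the fit, and both batch 5 libraries lay on that side of each of the 4 controls. By this rule batch 5 never overlaps the controls in a held gene. A lack of overlap between the groups of held genes, stated for many genes below, therefore follows in large part from their selection. Levels are counts relative to the library total (CPM), adjusted by the TMM normalization factors. They are not corrected for transcript length and compare libraries, not genes. Changes are log2 of knockout over control from the fit, and "in batch 5" marks the log2 difference of the 2 batch 5 libraries from the 4 controls. P-values measure only the spread between these libraries, which may be technical.

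IGF2BP3 belongs to a family of RNA-binding proteins that is abundant in the embryo, mostly silent in adult tissue and switched on again in many cancers. These proteins bind mRNAs in the cytoplasm, many of them carrying the methylated base m6A, and are known to protect bound mRNAs from decay and to influence their transport and translation. The classical targets include IGF2, ACTB, MYC and CD44 mRNA.

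IGF2BP3 RNA itself fell in the knockout. It stood at 74.9, 68.4, 69.2 and 68.5 CPM in control libraries 1 to 4 and at 28.8, 30.6, 25.1 and 26.3 CPM in knockout libraries 1 to 4. The groups did not overlap, and the batch 5 libraries were the lowest. The fitted change was -1.21 (SE 0.0567, adjusted p 4.05e-19), which leaves 43.2% of the control level, and the difference in batch 5 was -1.45 (SE 0.0628, adjusted p 6.27e-11). Means were 70.2 CPM ± 3.10 (SD, n = 4) in the control, 29.7 CPM ± 1.27 (SD, n = 2) in batches 3 and 4 and 25.7 CPM ± 0.859 (SD, n = 2) in batch 5. The gene lies on the minus strand at chr7:23310209-23470467 (GRCh38). Whether the RNA that remains can be translated is not visible in these counts.

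Both paralogs were also lower. IGF2BP1 RNA stood at 435.2, 428.1, 357.6 and 366.2 CPM in the controls and at 229.2, 231.1, 287.5 and 291.0 CPM in the knockout, a change of -0.65 (SE 0.0361, adjusted p 3.62e-17). IGF2BP2 RNA ranged from 84.3 to 89.4 CPM in the controls and from 69.1 to 74.2 CPM in the knockout, a change of -0.31 (SE 0.0486, adjusted p 1.11e-06). Neither gene's groups overlapped. The decrease of IGF2BP1 was smaller in batch 5, at -0.46. Reads could be exchanged between these related genes, which was not examined.

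Most expressed genes differed between this clone and the control. Of 18212 genes tested, 11781 (64.7%) passed the test, 5730 higher (31.5%) and 6051 lower (33.2%). The direction was held by 7738 genes (42.5%), 3706 higher (20.3%) and 4032 lower (22.1%). These percentages are the background for every gene group below. An absolute log2 change of at least 1 was reached by 2366 of the higher calls (13.0% of all tested) and 678 of the lower (3.72%), and among held genes 1718 were higher (9.43%) and 599 lower (3.29%). Held genes that rose had lower control levels. Their median was 5.80 CPM, against 56.9 CPM for those that fell and 14.5 CPM for all tested genes. Genes almost absent from the controls passed the filter on low counts only through other libraries and could only rise. The knockout libraries were also deeper than the controls. The part of the filter and of depth in these levels, and in the larger number of large increases, was not tested. Of the held genes with an annotated class, 80.2% of the higher ones were protein-coding and 17.8% long noncoding, against 94.0% and 4.08% of the lower ones and 78.9% and 15.6% of all tested genes.

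Depth ranged from 16720159 to 21758636 counts in the controls and from 22770784 to 26119480 in the knockout. The biological coefficient of variation was 2.89% in the fit with batch. Nuclear-retained noncoding RNAs can mark carry-over of nuclear RNA. The sum of the 7 tested was 406.9 to 459.8 CPM in the controls, 1079 to 1099 CPM in knockout batches 3 and 4 and 607.7 to 657.6 CPM in batch 5. The same 7 were also called higher in total RNA. All 4 knockout libraries lay above all 4 controls. The part of this difference in the results below was not tested. The share of higher against lower calls depends on the scaling: with upper quartile scaling, which raises the median change of all genes from 0.0248 to 0.193, there were 7705 higher and 4227 lower calls, and 4872 higher and 2975 lower held genes.

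**Figure D1:**
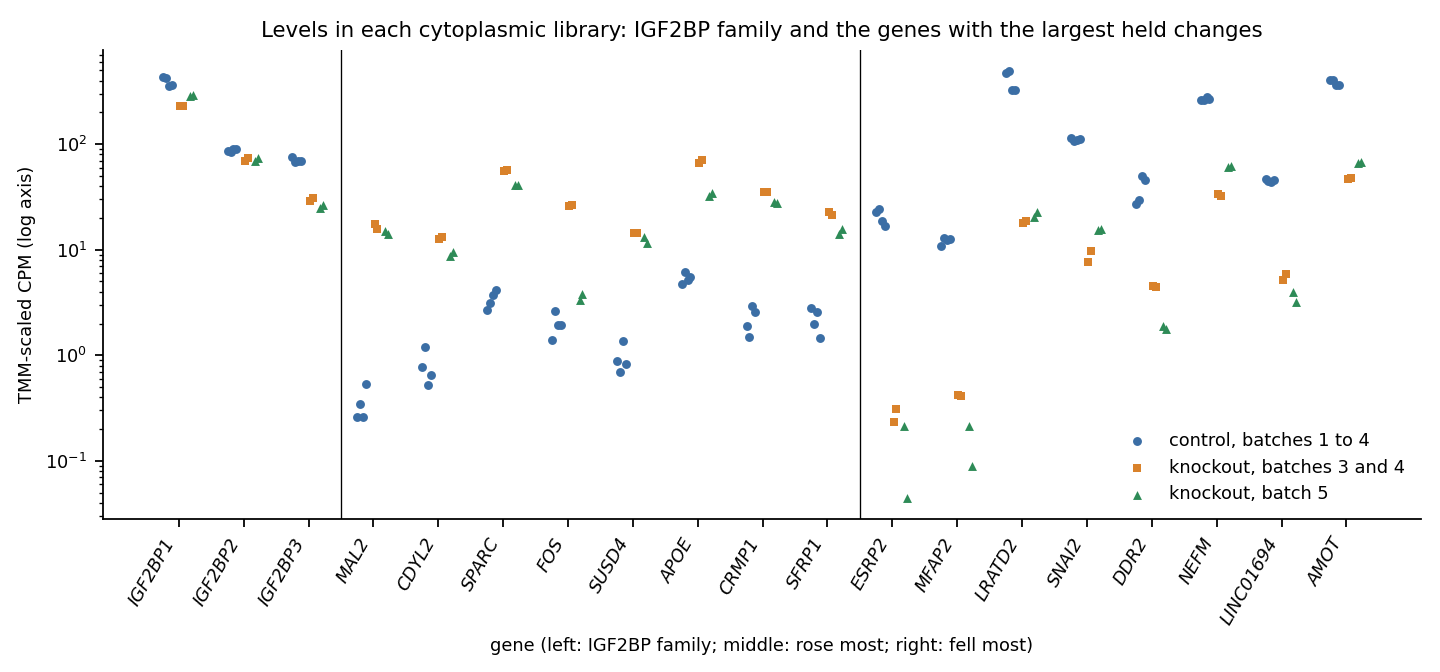
Level of the 3 IGF2BP genes, the 8 held genes that rose most and the 8 that fell most, in TMM-scaled CPM on a log axis, with each point 1 cytoplasmic library. The 4 knockout libraries stand apart from the 4 controls for every gene shown, which for held genes follows in large part from their selection. FOS and APOE are nearer to the control in batch 5.

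The gene that rose most among held genes reaching 10 CPM was MAL2, which encodes a membrane protein of apical transport in epithelial cells (chr8:119165034-119245673, plus strand). It stood at 0.261, 0.347, 0.260 and 0.530 CPM in the controls and at 17.7, 15.9, 15.1 and 14.0 CPM in the knockout. The change was 5.36 (SE 0.232, adjusted p 4.87e-20), or 41.1-fold, and it was 5.36 in batch 5 as well. All 4 knockout libraries lay close together, far above the controls.

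SPARC, a secreted matrix glycoprotein, stood at 2.71, 3.12, 3.70 and 4.18 CPM in the controls and at 55.9, 56.5, 41.0 and 41.0 CPM in the knockout (change 3.83, adjusted p 7.76e-26). CDYL2, a chromodomain protein, rose by 4.44, from 0.519 to 1.19 CPM in the controls to 8.77 to 13.1 CPM. SUSD4, a membrane regulator of complement, rose by 3.73 and CRMP1, a cytoskeletal protein of growing axons, by 3.68. SFRP1, a secreted antagonist of Wnt ligands, rose by 3.45, with 1.47 to 2.82 CPM in the controls and 14.0 to 22.8 CPM in the knockout. For these 5 genes no knockout library came near the controls, and batch 5 was as high as batches 3 and 4 or moderately lower.

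A further pair, FOS and APOE, differed more between batches. FOS, an immediate-early transcription factor, stood at 1.41, 2.63, 1.95 and 1.95 CPM in the controls, at 25.8 and 26.4 CPM in knockout batches 3 and 4 and at 3.33 and 3.77 CPM in batch 5. APOE, an apolipoprotein of cholesterol transport, stood at 4.75 to 6.14 CPM in the controls, at 67.0 and 71.0 CPM in batches 3 and 4 and at 32.5 and 34.6 CPM in batch 5. The FOS change was 3.74 in the fit and 0.83 in batch 5, and the APOE change 3.69 and 2.63. Both genes were higher in all 4 knockout libraries.

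Among held genes reaching 10 CPM, the largest decrease was that of ESRP2, an RNA-binding protein that sets epithelial splicing (chr16:68229111-68238102, minus strand). It stood at 22.8, 24.1, 18.7 and 16.7 CPM in the controls and at 0.231, 0.310, 0.216 and 0.0443 CPM in the knockout. The change was -5.99 (SE 0.199, adjusted p 4.31e-23), which leaves 1.58% of the control, and -7.24 in batch 5. LRATD2 stood at 468.9, 488.4, 327.1 and 328.6 CPM in the controls and at 17.9, 18.8, 20.6 and 22.8 CPM in the knockout, a change of -4.16. Neither gene's knockout libraries approached the control range.

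SNAI2, a zinc finger repressor of epithelial genes, stood at 106.6 to 114.2 CPM in the controls and at 7.71, 9.66, 15.5 and 15.6 CPM in the knockout (change -3.66, adjusted p 4.38e-30). MFAP2, a protein of elastic microfibrils, fell by 4.89 on the log2 scale. DDR2, a receptor tyrosine kinase for fibrillar collagen, fell by 3.41 on that scale and stood at 4.51, 4.44, 1.90 and 1.77 CPM in the knockout against 27.02 to 49.45 CPM in the controls. NEFM, the medium neurofilament chain, was at 262.0 to 277.8 CPM in the controls and at 33.4, 32.1, 61.4 and 62.8 CPM in the knockout (change -3.06). AMOT, a regulator of Hippo signalling, fell by 2.92 on the log2 scale and the noncoding LINC01694 by 3.00. The 4 knockout libraries lay below all controls for each of these genes.

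Batch 5 did not simply repeat batches 3 and 4. Its libraries differed from the 4 controls at 9366 genes (51.4%), 4579 higher (25.1%) and 4787 lower (26.3%), in the group fit without a batch term. They also differed from the batch 3 and 4 libraries of the same knockout at 8000 genes (43.9%). Of the genes called in batches 3 and 4, 625 (3.43% of those tested) had both batch 5 libraries on the other side of all 4 controls, 184 of them called higher (1.01%) and 441 called lower (2.42%). EGR1, an immediate-early zinc finger factor, was at 10.96 to 14.54 CPM in the controls, at 101.4 and 107.1 CPM in batches 3 and 4 and at 9.59 and 8.37 CPM in batch 5. Its change was 3.04 in the fit and -0.58 in batch 5 (adjusted p 0.000193). CHAC1, an enzyme that degrades glutathione, was at 32.7, 31.2, 21.0 and 21.2 CPM in the controls, at 61.6 and 67.2 CPM in batches 3 and 4 and at 8.47 and 8.33 CPM in batch 5.

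CHAC1 changed by 1.61 in the fit and by -1.67 in batch 5 (adjusted p 5.05e-07), and STUM by 1.59 and -0.47. In the other direction, ODC1, the first enzyme of polyamine synthesis, stood at 277.9 to 341.4 CPM in the controls, at 155.7 and 153.3 CPM in batches 3 and 4 and at 347.0 and 355.7 CPM in batch 5. Its change was -0.90 in the fit, and the difference of 0.16 in batch 5 did not pass the test (adjusted p 0.0568). PNO1 and NHP2, both of ribosome assembly, had changes of -0.83 and -0.69 in the fit. In batch 5 NHP2 was higher by 0.18 (adjusted p 0.00487), while the 0.25 of PNO1 missed the threshold (adjusted p 0.0702). For these 6 genes the direction depends on which knockout libraries are taken.

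**Figure D2:**
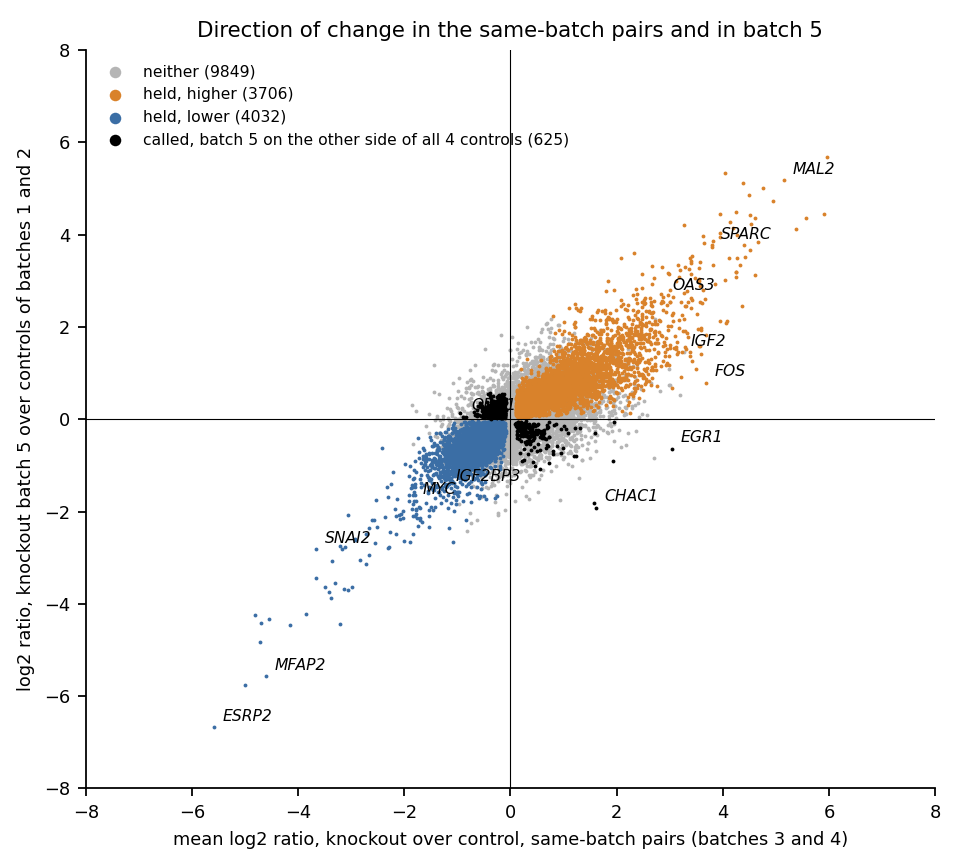
Each point is 1 tested gene, with the mean log2 ratio of knockout to control in the same-batch pairs (batches 3 and 4) on the horizontal axis and the log2 ratio of batch 5 to controls 1 and 2 on the vertical axis, both from CPM + 0.1. Colours mark held genes (3706 higher, 4032 lower) and the 625 genes whose batch 5 libraries lay on the opposite side.

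The gene groups below were lists of pathway and marker genes. At least 10 genes were tested in 20 of the 23 lists. The background was 20.3% held higher and 22.1% held lower. Shares held lower were high for the IGF2BP partner and m6A list (21 of 33) and the glycolytic enzymes (14 of 22). This was also so for the ATF4 list (21 of 36) and the IGF2BP targets (15 of 28). Shares held higher were high for the interferon-stimulated genes (21 of 47), the neuronal markers (7 of 15) and the epithelial markers (5 of 11). However, 4 neuronal and 4 epithelial markers were held lower, so these 2 lists moved in both directions. Members near 0 in the controls could only rise. Held lower genes had a higher median control level than all tested genes (56.9 against 14.5 CPM). The part of expression level in the shares held lower was not tested. Upper quartile scaling moved several medians of the fit by over 1.5 times: from 0.255 and 0.256 to 0.424 for the interferon receptor list and for class I presentation, and to -0.192 for the IGF2BP targets, -0.318 for the partner list and -0.0914 for cholesterol synthesis. No list was tested as a set, and the lists were chosen with earlier results of these data known.

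**Figure D3:**
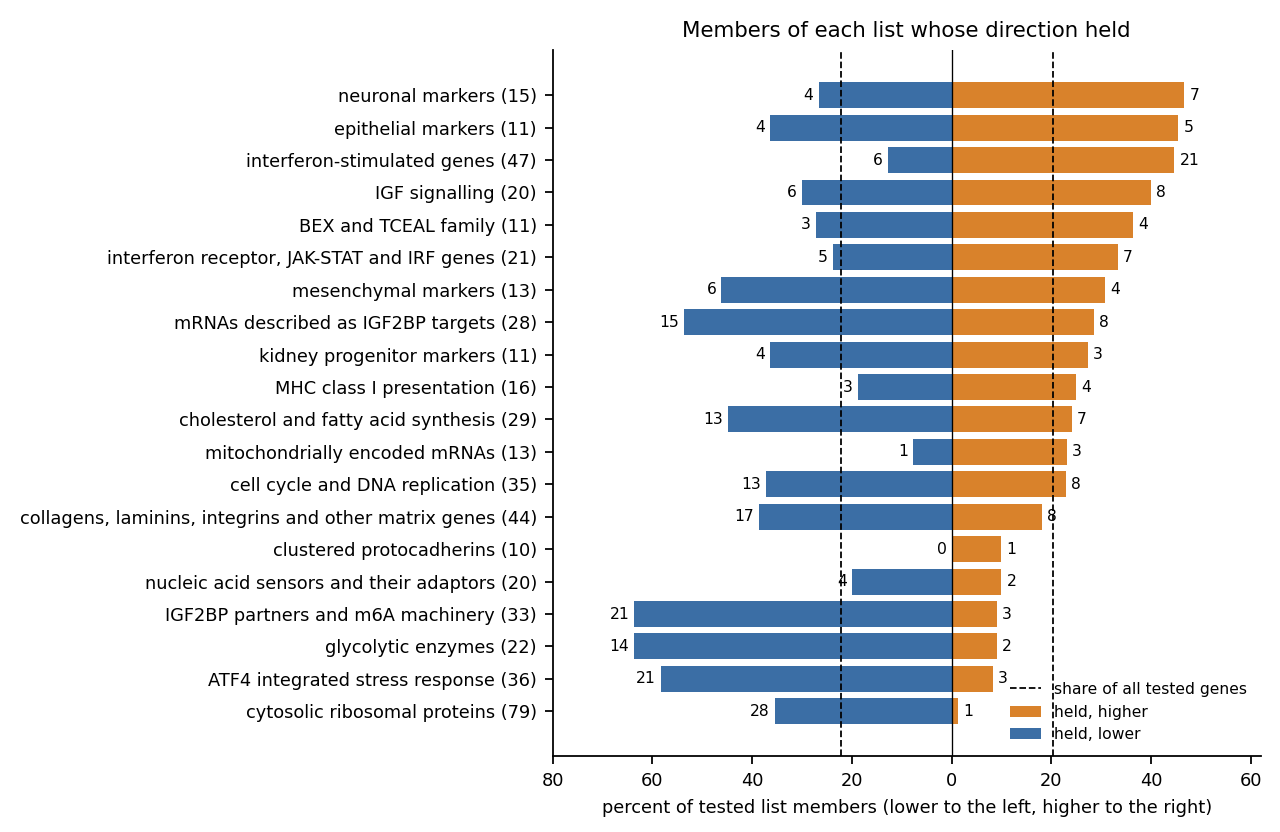
Percent of the tested members of each list that were held higher or held lower, for the 20 lists with at least 10 tested members. Dashed lines mark the same percentages over all 18212 tested genes, 20.3% higher and 22.1% lower.

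Interferon-stimulated genes form the antiviral programme switched on when type I interferon binds its receptor. The receptor activates the kinases JAK1 and TYK2, these activate STAT proteins, and the STATs with IRF9 bind a promoter element, the interferon-stimulated response element. In the IGF2BP3 knockout 32 of the 47 tested members of a list of 60 rose and 7 fell. The direction was held by 21 higher and 6 lower members, against a background of 20.3% and 22.1%. Some of the 21 were near 0 in the controls and could only be called higher, so their share is partly fixed by the filter. Among them were TRIM22 and IFI16 (no control count), MX1 (at most 0.118 CPM) and IFIT2 (at most 0.236 CPM). The median change of the 47 was 0.685, with 0.0248 for all genes, and 0.358 in batch 5. The other 13 members did not pass the filter on low counts.

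Some promoters of the held higher members carry the letters of the response element. They are shown for 3 such members, chosen for holding these letters, from 250 bases before to 50 bases after the start of the gene (RefSeq, GRCh38.p14), read 5′ to 3′ on the gene's strand, with matches to GAAANNGAAA in capitals.
OAS3, chr12:112938224-112938523, plus strand: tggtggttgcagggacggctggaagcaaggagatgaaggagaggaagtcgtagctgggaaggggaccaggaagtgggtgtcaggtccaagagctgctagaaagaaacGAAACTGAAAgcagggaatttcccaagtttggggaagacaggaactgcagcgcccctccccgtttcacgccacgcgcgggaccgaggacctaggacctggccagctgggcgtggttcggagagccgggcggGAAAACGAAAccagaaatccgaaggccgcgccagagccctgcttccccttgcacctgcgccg
EPSTI1, chr13:42992192-42992491, minus strand: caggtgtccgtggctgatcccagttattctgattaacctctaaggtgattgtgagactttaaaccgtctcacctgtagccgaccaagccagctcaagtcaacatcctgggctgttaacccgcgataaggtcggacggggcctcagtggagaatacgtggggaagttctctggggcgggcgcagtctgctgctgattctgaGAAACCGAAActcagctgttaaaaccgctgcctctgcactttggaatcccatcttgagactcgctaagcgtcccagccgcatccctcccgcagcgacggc
IFITM3, chr11:320811-321110, minus strand: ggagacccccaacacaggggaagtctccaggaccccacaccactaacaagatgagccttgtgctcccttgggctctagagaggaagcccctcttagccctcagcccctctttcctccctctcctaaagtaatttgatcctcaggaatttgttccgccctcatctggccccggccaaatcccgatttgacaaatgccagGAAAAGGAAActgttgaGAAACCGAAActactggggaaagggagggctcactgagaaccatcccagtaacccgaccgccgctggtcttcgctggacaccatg
OAS3 and IFITM3 hold 2 matches each and EPSTI1 holds 1. On either strand, overlapping matches included, GAAANNGAAA was found in 1255 of 35116 promoters (3.57%). Among listed genes with a promoter in the table it was found in 11 of 16 held higher, 5 of 5 held lower and 11 of 17 not held, so the matches did not separate the members that rose from the rest. A match describes the sequence and is not evidence of binding.

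OAS3, which makes the 2′-5′ oligoadenylates that activate RNase L, stood at 2.56, 1.88, 3.12 and 2.06 CPM in the controls and at 18.2, 20.4, 15.9 and 13.0 CPM in the knockout. It rose by 2.91 (SE 0.153, adjusted p 8.75e-18), with 2.60 in batch 5. EPSTI1 (chosen after its values were seen, for its promoter) stood at 0.707 to 0.892 CPM in the controls and at 4.82, 4.26, 4.06 and 3.59 CPM in the knockout (change 2.54, adjusted p 7.69e-11). Every knockout library of both genes was above every control.

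SP110, a nuclear body protein, rose by 2.99 and PARP10, an ADP-ribosyltransferase, by 2.68 (adjusted p 3.2e-08 and 2.35e-09). SP110 was at 0.177 to 0.470 CPM in the controls and at 2.20 to 2.92 CPM in the knockout. The remaining members in this paragraph were chosen after their values were seen. IFITM3, which blocks virus entry at endosomal membranes, stood at 5.01, 3.86, 7.14 and 4.89 CPM in the controls and at 18.8, 20.2, 18.2 and 16.4 CPM in the knockout (change 1.71), and IFITM2 rose by 1.11. The IFITM genes are near-identical neighbours, so the assignment of reads among them is uncertain. UBE2L6, the conjugating enzyme for ISG15, rose by 1.93 and was lower in batch 5 (12.1 and 12.2 CPM) than in batches 3 and 4 (23.9 and 26.2 CPM), against at most 6.89 CPM in the controls.

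A pair of members had no count in any control library. TRIM22, an antiviral ubiquitin ligase, had 83 counts over the 4 knockout libraries, at least 22.4-fold higher per depth against a floor of 3 counts over the control group. IFI16, a sensor of DNA, had 40 counts and was at least 10.8-fold higher. Both levels are low, at 0.346 to 1.27 CPM and 0.222 to 0.579 CPM in the knockout libraries. TRIM22 and IFI16 were singled out for these counts, and they passed the filter through the knockout libraries.

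Not all members moved up. LAP3, an aminopeptidase, stood at 98.1, 95.7, 96.1 and 92.2 CPM in the controls and at 41.5, 41.1, 67.1 and 73.1 CPM in the knockout (change -1.19, adjusted p 8.27e-20). PLSCR1, TRIM14, HERC5, EIF2AK2 and USP18 were also held lower, by -0.83, -0.65, -0.46, -0.44 and -0.21. ISG15, the ubiquitin-like modifier, was higher by 0.47 in batches 3 and 4 and not in batch 5 (-0.29, adjusted p 0.246), and IFITM1 was higher by 0.56 in the fit and lower in batch 5 by -0.51. LGALS3BP, BST2, RNF213 and HELZ2 were also called higher and did not hold in batch 5. These members too were chosen after their values were seen. Of the called members, 3 had batch 5 on the opposite side of all controls.

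The summed level of the tested members was 1063 to 1123 CPM in the controls, 1216 to 1243 CPM in batches 3 and 4 and 1182 to 1190 CPM in batch 5, without overlap. Abundant members weigh most in this sum, which therefore does not show a rise across the list. CNP, held higher, stood at 153.9 to 170.5 CPM in the controls and 196.2 to 228.2 CPM in the knockout. LGALS3BP stood at 101.1 to 109.3 CPM in the controls. It was at 170.5 and 174.5 CPM in batches 3 and 4 and at 105.9 and 116.8 CPM in batch 5. LAP3 and EIF2AK2, also abundant, fell. These members were named after their values were seen. In the other RNA kinds, the median change of the list was 0.853 in total and 0.933 in nuclear RNA. The list's cytoplasmic median depended on the fit: it was 0.458 with only the 8 libraries compared here, 0.419 without the batch term, 0.48 with at least 1 CPM required in 4 libraries, and 0.30 and 0.0499 with limma on log2(FPKM + 0.1) and log2(FPKM + 1), where low values are compressed.

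**Figure D4:**
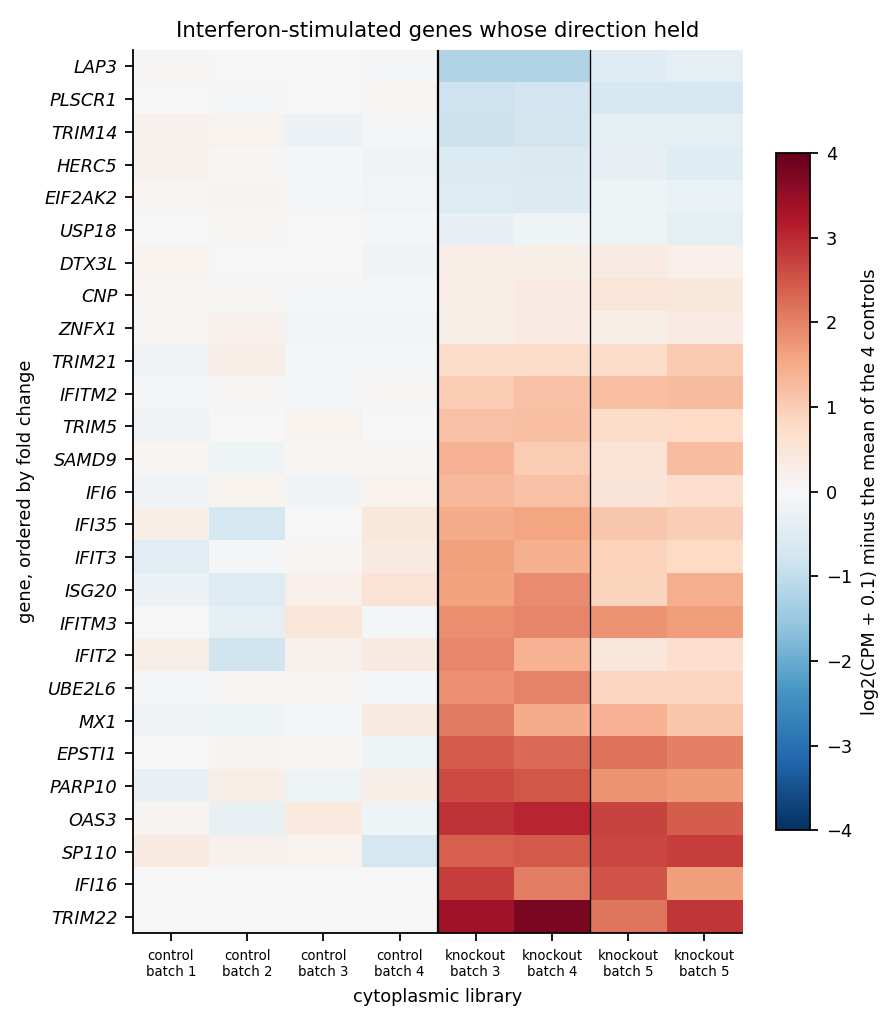
Held interferon-stimulated genes (21 higher, 6 lower) in the 8 cytoplasmic libraries, as log2(CPM + 0.1) minus the mean of the 4 controls. Rows are genes and columns are libraries; the shared direction follows from how held genes were chosen, and the sizes differ between batches 3 and 4 and batch 5 for genes such as UBE2L6 and LAP3.

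Upstream of these genes the picture was mixed. Among 20 tested sensors of nucleic acids and their adaptors (26 listed), 4 rose and 6 fell, with 2 held higher and 4 held lower and a median of -0.0129, which is 0.156 with upper quartile scaling and 0.0341 without the batch term. MYD88, the adaptor of most Toll-like receptors, had the largest decrease. It stood at 16.4, 16.4, 12.4 and 12.3 CPM in the controls and at 3.28, 4.02, 3.37 and 3.10 CPM in the knockout (change -1.75, SE 0.125, adjusted p 3.25e-14), and -2.16 in batch 5. TRAF3, an adaptor between sensors and their kinases, fell by 0.38 on the log2 scale, and IRAK4, the kinase that MYD88 recruits, rose by 0.34 (adjusted p 0.000581). MAVS, the mitochondrial adaptor of RNA sensing, named after its values were seen, stood at 109.3 to 119.0 CPM in the controls and 107.6 to 123.7 CPM in the knockout and was not called (adjusted p 0.74).

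Of 21 tested interferon receptor, JAK-STAT and IRF genes (22 listed), 10 rose and 7 fell, and 7 and 5 were held. IRF7, the transcription factor that amplifies interferon production, stood at 0.730, 1.39, 1.04 and 1.30 CPM in the controls and at 6.90, 6.19, 5.83 and 5.76 CPM in the knockout (change 2.47, SE 0.228, adjusted p 2.78e-11). SOCS3, a feedback inhibitor of JAK kinases, rose by 1.69, from 0.884 to 1.59 CPM in the controls to 2.84 to 3.20 CPM. JAK1 fell, standing at 112.0 to 122.1 CPM in the controls and at 71.1, 67.5, 79.0 and 76.2 CPM in the knockout (change -0.74, adjusted p 4.73e-16). The groups did not overlap for these 3 genes.

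Smaller held changes, of genes chosen after their values were seen, ran in both directions within the same receptor pathway. Both receptor chains were higher, IFNAR1 by 0.29 and IFNAR2 by 0.65, while TYK2, a kinase bound to the receptor, was lower by -0.42. STAT2 was higher by 0.53 in the fit and lower in batch 5 by -0.23 (adjusted p 0.0481). The median of the list was 0.255 in the fit and 0.209 in batch 5, and it was 0.0816 without knockout library 1 and 0.0476 without control library 4.

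Class I antigen presentation had 16 tested genes of 17, of which 10 rose and 4 fell, and 4 and 3 were held. ERAP2, an endoplasmic reticulum aminopeptidase that trims peptides, stood at 1.72, 1.83, 2.73 and 2.42 CPM in the controls and at 10.6, 8.56, 5.36 and 5.18 CPM in the knockout (change 1.89, SE 0.16, adjusted p 2.35e-12). ERAP1 rose by 0.98. TAP2, a subunit of the peptide transporter, was at 27.2 to 29.5 CPM in the controls and at 14.8 to 16.9 CPM in the knockout (change -0.82), without overlap. B2M, the light chain, was held higher by 0.28 and was named after its values were seen.

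Among 28 mRNAs described as IGF2BP targets, all of which were tested, 18 fell and 9 rose, with 15 held lower and 8 held higher and a median of -0.361 (-0.147 in batch 5). MYC, a transcription factor of cell growth (chr8:127735434-127741434, plus strand), stood at 306.1, 308.7, 236.9 and 247.4 CPM in the controls and at 69.2, 67.4, 88.8 and 91.4 CPM in the knockout. It changed by -1.83 (SE 0.0436, adjusted p 8.48e-27), with -1.61 in batch 5. Every knockout library lay below the lowest control.

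In the opposite direction, IGF2, the growth factor whose mRNA gave the family its name (chr11:2129112-2149603, minus strand), stood at 2.97, 3.57, 2.53 and 2.48 CPM in the controls and at 23.8, 24.8, 8.43 and 9.75 CPM in the knockout. This is an increase of 3.28 (SE 0.127, adjusted p 2.94e-21), and of 1.64 in batch 5. An overlapping read-through gene shares its sequence, so the assignment of reads is uncertain. CD44, the hyaluronan receptor, stood at 0.0649 to 0.297 CPM in the controls and at 1.23, 1.17, 1.30 and 1.11 CPM in the knockout (change 3.22, adjusted p 8.16e-06). IGF2 and CD44 were above all controls in every knockout library.

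Further held targets were chosen after their values were seen. HNRNPM (-1.06), CCND1 (-1.01), LIN28B (-0.94), HMGA1 (-0.78), HMGA2 (-0.61) and ACTB (-0.51) fell, and GPC3 (0.85), FOXM1 (0.64) and SOX2 (0.42) rose.

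Insulin-like growth factor signalling had 20 tested genes of 22, 9 higher and 7 lower, with 8 and 6 held. IGFBP3, a binding protein of the growth factor, stood at 0 to 0.118 CPM in the controls and at 0.926, 0.791, 1.34 and 1.51 CPM in the knockout (change 3.13, adjusted p 6.55e-05). Of the other binding proteins tested, IGFBP6 (1.73) and IGFBP4 (1.32) were held higher, IGFBP5 was called higher (0.52) and IGFBP2 lower (-0.25) without holding. The noncoding H19 (1.51), neighbour of IGF2, was held higher. GRB14, an adaptor that inhibits the insulin receptor, stood at 7.98 to 10.2 CPM in the controls and at 2.39, 2.41, 3.59 and 3.41 CPM in the knockout (change -1.96, adjusted p 5.41e-13), and the related GRB10 fell by 0.92 on the log2 scale. INSR and IGF2R, receptors of insulin and of IGF2, were held lower by -0.39 and -0.36. IGF1R, the signalling receptor, was at 77.4 to 88.1 CPM in the controls and 72.5 to 80.7 CPM in the knockout and was not called (0.02, adjusted p 0.806). Apart from IGFBP3 and GRB14, these genes were named after their values were seen.

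Proteins that bind the same mRNAs and enzymes that write, erase or read m6A were mostly lower. Of 33 tested genes of 34, 27 fell and 3 rose, 21 were held lower and 3 held higher, and the median was -0.487 (-0.21 in batch 5). DHX9, a helicase found in IGF2BP granules, stood at 538.5, 520.4, 425.9 and 423.0 CPM in the controls and at 203.1, 195.9, 277.4 and 297.8 CPM in the knockout (change -1.09, SE 0.0386, adjusted p 2.32e-22). FTO, an m6A demethylase, stood at 61.8 to 69.1 CPM in the controls and at 39.0, 37.2, 38.3 and 37.4 CPM in the knockout (change -0.78, adjusted p 1.92e-14). PABPC4, a poly(A)-binding protein, fell by 0.90 on the log2 scale. DHX9, FTO and PABPC4 were below all controls in the 4 knockout libraries.

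The decrease was larger in batches 3 and 4 for most of these genes. The summed level of the list was 11339 to 11737 CPM in the controls, 7740 CPM in both libraries of batches 3 and 4 and 9338 to 9400 CPM in batch 5. YBX1, a cold shock protein that also binds mRNA and was named after its values were seen, fell by 0.64 in the fit and by 0.12 in batch 5 on the log2 scale. METTL3, the m6A methyltransferase, was held lower by -0.38, and its partner METTL14 was not called (-0.13, adjusted p 0.0967). YTHDF1, an m6A reader, was held higher by 0.18 and YTHDF2 held lower by -0.49. METTL3, METTL14, YTHDF1 and YTHDF2 were likewise chosen after their values were seen.

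ATF4 is the transcription factor of the integrated stress response. When kinases phosphorylate the initiation factor eIF2, general translation falls, ATF4 protein is made, and genes of amino acid supply and, under lasting stress, of cell death are switched on. All 36 genes of the list were tested, and 22 fell and 10 rose. The direction was held lower by 21 and higher by 3. The median was -0.248 in the fit and -1.01 in batch 5, where 29 were lower and 3 higher. With upper quartile scaling the median was -0.0791, with 15 held lower and 3 held higher. The median was 0.0455 in nuclear RNA.

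A minority of these promoters hold the letters TGATGNAA of the element that ATF4 binds with CEBP proteins. Shown in the same form are the promoters of ASNS, which makes asparagine, and AARS1, which charges tRNA with alanine. Both were chosen for holding these letters, and matches on either strand are in capitals.
ASNS, chr7:97872359-97872658, minus strand: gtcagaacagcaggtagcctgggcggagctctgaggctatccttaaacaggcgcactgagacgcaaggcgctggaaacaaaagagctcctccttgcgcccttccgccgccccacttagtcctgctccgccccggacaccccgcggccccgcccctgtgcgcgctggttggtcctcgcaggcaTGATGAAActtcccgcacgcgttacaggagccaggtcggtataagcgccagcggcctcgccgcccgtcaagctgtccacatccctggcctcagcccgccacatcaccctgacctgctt
AARS1, chr16:70289457-70289756, minus strand: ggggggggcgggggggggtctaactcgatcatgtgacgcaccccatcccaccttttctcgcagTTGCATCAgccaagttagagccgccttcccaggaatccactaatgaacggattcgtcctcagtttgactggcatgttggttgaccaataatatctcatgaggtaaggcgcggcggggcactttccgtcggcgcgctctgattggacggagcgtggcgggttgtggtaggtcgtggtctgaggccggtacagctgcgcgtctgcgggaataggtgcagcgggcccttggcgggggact
TGATGNAA was found on either strand, overlaps included, in 1270 of 35116 promoters (3.62%), in 7 of 18 held lower genes of the list that were in the table, in 1 of 3 held higher and in 2 of 10 not held.

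Genes of amino acid supply were among the largest decreases. CTH, which makes cysteine from cystathionine, stood at 38.7, 35.0, 65.5 and 67.7 CPM in the controls and at 25.3, 24.3, 11.4 and 10.9 CPM in the knockout (change -1.43, SE 0.0601, adjusted p 2.45e-20, and -2.20 in batch 5). SLC7A5, the carrier of large neutral amino acids, stood at 508.9 to 557.0 CPM in the controls and at 251.6, 264.0, 238.9 and 242.5 CPM in the knockout (change -1.05, and -1.14 in batch 5). AARS1 stood at 286.9, 272.0, 344.5 and 342.8 CPM in the controls and at 210.7, 217.6, 111.2 and 117.8 CPM in the knockout (change -0.68, and -1.44 in batch 5). The batch 5 libraries were the lowest for these 3 genes.

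Genes with a smaller change in batches 3 and 4 showed the same order. ASNS was lower by -0.81 in the fit and -1.84 in batch 5, SLC7A11, the cystine carrier, by -0.46 and -1.89, and DDIT4, an inhibitor of growth signalling, by -0.25 and -1.60. PCK2, the mitochondrial enzyme that makes phosphoenolpyruvate, was higher by 0.45 in the fit and lower by -1.31 in batch 5. ATF4 mRNA itself was not called (-0.06, adjusted p 0.112), and it was lower by -0.31 in batch 5. AARS1 and the 5 genes of this paragraph were chosen after their values were seen.

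The 3 held higher members were DDIT3, ATF3 and TRIB3. DDIT3, the transcription factor of stress-induced cell death known as CHOP, stood at 6.99, 6.74, 10.51 and 9.43 CPM in the controls and at 29.7, 30.6, 15.7 and 15.4 CPM in the knockout (change 1.60, SE 0.0864, adjusted p 1.91e-17, and 0.91 in batch 5). ATF3, a repressor of stress genes, rose by 0.63, and TRIB3, an inhibitor of ATF4 and CHOP, by 0.26, both named after their values were seen. The summed level of the list was 6649 to 8012 CPM in the controls, 6116 to 6187 CPM in batches 3 and 4 and 4104 to 4170 CPM in batch 5.

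**Figure D5:**
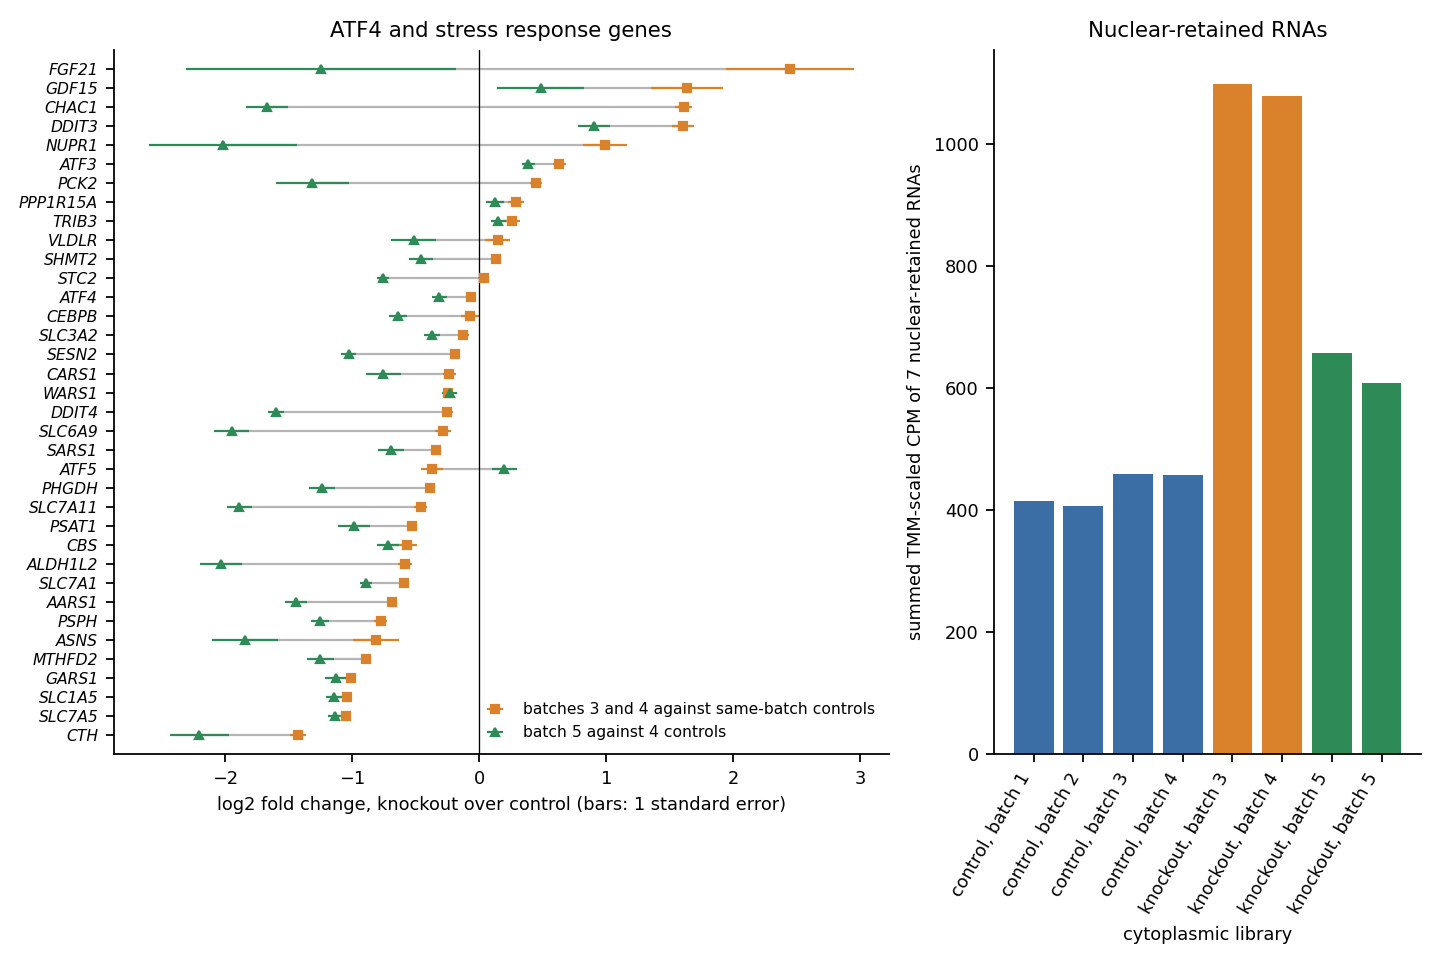
Left, log2 change of the 36 genes of the ATF4 list in batches 3 and 4 (fit with batch) and in batch 5 against the 4 controls, with bars of 1 SE. Right, summed CPM of 7 nuclear-retained noncoding RNAs in each cytoplasmic library, 406.9 to 459.8 in the controls and 607.7 to 1099 in the knockout.

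Glycolytic enzymes were lower as well. Of 22 genes, all tested, 17 fell and 3 rose, with 14 held lower and 2 held higher, and the median was -0.718 (-0.35 in batch 5). HK2, a hexokinase of the first step, stood at 96.5, 93.1, 81.6 and 77.4 CPM in the controls and at 16.9, 16.5, 34.8 and 36.5 CPM in the knockout (change -2.25, SE 0.0606, adjusted p 1.72e-25). SLC2A1, the glucose carrier, stood at 43.6 to 50.6 CPM in the controls and at 16.3, 15.7, 25.8 and 27.2 CPM in the knockout (change -1.48). ENO2, the enolase of neurons, moved the other way, from 14.3 to 16.4 CPM in the controls to 69.4, 66.7, 45.7 and 49.4 CPM (change 2.12, adjusted p 5.47e-23). For LDHA, lactate dehydrogenase, named after its values were seen, the change was -1.23 in the fit and -0.27 in batch 5, so batch 5 stood nearer to the control.

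Cholesterol and fatty acid synthesis had 29 genes, of which 19 fell and 7 rose, with 13 and 7 held. SQLE, the epoxidase of squalene, stood at 251.5, 252.8, 204.5 and 199.6 CPM in the controls and at 86.7, 83.1, 156.5 and 164.5 CPM in the knockout (change -1.25, adjusted p 6.46e-23). CYP51A1, which has processed pseudogenes, fell by 1.19 on the log2 scale. SC5D, an enzyme late in the same pathway, stood at 56.3 to 63.1 CPM in the controls and at 139.5, 134.0, 175.0 and 179.2 CPM in the knockout (change 1.27, adjusted p 7.55e-22). FASN, which makes palmitate, was held lower by -1.03. HMGCS1 and IDI1, early enzymes of the pathway, were lower by -0.15 and -0.14 in the fit and higher by 0.54 and 0.56 in batch 5. These 3 were chosen after their values were seen. The list's median was -0.26 in the fit, -0.103 without the batch term and 0.125 in batch 5.

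The 3 largest held changes among cell cycle genes were increases of kinase inhibitors. CDKN2B, an inhibitor of CDK4 and CDK6, stood at 12.1, 13.0, 10.3 and 10.1 CPM in the controls and at 50.7, 49.4, 53.7 and 51.8 CPM in the knockout (change 2.29, SE 0.0791, adjusted p 1.19e-22). CDKN1A, the inhibitor p21, stood at 27.3 to 32.4 CPM in the controls and at 93.4, 99.5, 66.8 and 64.3 CPM in the knockout (change 1.64, adjusted p 1.9e-22). CDKN1C rose by 1.77, and CDKN1B, CDKN2C and CDKN2D (like CDKN2A below, named after their values were seen) by 1.07, 0.87 and 0.84. These 6 inhibitors were above all controls in the 4 knockout libraries, which the rule for held genes largely requires. CDKN2A was not called (adjusted p 0.216).

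Of the 35 cell cycle and replication genes, 21 fell and 10 rose, with 13 held lower and 8 held higher. The subunits of the replicative helicase MCM2, MCM3, MCM4, MCM5, MCM6 and MCM7 were held lower by -0.97, -0.69, -0.69, -0.28, -1.31 and -0.96. MCM6 stood at 273.4 to 296.4 CPM in the controls and at 113.3, 116.1, 141.5 and 155.0 CPM in the knockout. The MCM genes were named after their values were seen. The median of the list was -0.151 in the fit, 0.0354 in batch 5 and 0.0176 with upper quartile scaling.

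Of 44 tested matrix and adhesion genes of 46, 18 rose and 18 fell, with 8 and 17 held, and the median of -0.119 becomes 0.0484 with upper quartile scaling. COL12A1, a collagen of the fibril surface, stood at 0, 0.149, 0.325 and 0.177 CPM in the controls and at 6.33, 6.57, 3.85 and 3.77 CPM in the knockout (change 4.68, SE 0.326, adjusted p 1.69e-14). A few basement membrane genes, chosen after their values were seen, were held lower: COL4A1 by -0.69, COL4A2 by -0.87, LAMA1 by -0.90, LAMB1 by -0.67 and LAMC1 by -0.71. So was ITGA4, an integrin chain (-1.69). COL2A1 (1.49), COL6A2 (1.29) and ITGA3 (1.39) were held higher, while FN1, fibronectin, was higher by 0.47 in the fit and lower by -0.33 in batch 5. ITGA4, COL2A1, COL6A2, ITGA3 and FN1 were likewise chosen after their values were seen.

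Epithelial and mesenchymal markers both moved in mixed directions. Of 11 tested epithelial markers (14 listed), 5 were held higher and 4 held lower, and of 13 tested mesenchymal markers (15 listed), 4 and 6. EPCAM, an epithelial adhesion molecule, stood at 2.08 to 2.59 CPM in the controls and at 0.216 to 0.585 CPM in the knockout (change -2.19, adjusted p 2.83e-07). CLDN6, a tight junction protein of the embryo, rose by 3.31, from 0.236 to 0.470 CPM in the controls to 3.09, 3.13, 0.735 and 1.37 CPM. KRT8, a keratin, was held higher by 1.09 and CDH1, the cell adhesion molecule E-cadherin, held lower by -1.10, both named after their values were seen. The 2 batch 5 libraries of CLDN6 were the lowest of its knockout libraries.

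TWIST2, a mesenchymal transcription factor, had 100, 109, 82 and 74 counts in the controls and 1, 2, 0 and 0 in the knockout. The ratio of 365 to 3 counts is 150.0 per depth, with an exact 95% interval of 50.9 to 731.0 for counting error only. SNAI1, the relative of SNAI2, rose by 2.25 (adjusted p 1.71e-07), with 0.519 to 1.24 CPM in the controls and 4.63, 3.68, 3.20 and 1.51 CPM in the knockout. VIM, the mesenchymal intermediate filament, was at 715.2 to 929.5 CPM in the controls and at 433.4 to 474.4 CPM in the knockout (-0.97), and CDH2, the adhesion molecule N-cadherin, was held higher by 0.84. VIM and CDH2 were chosen after their values were seen. In such bulk libraries, fewer cells with a transcript and less of it per cell cannot be told apart.

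HEK293T cells are known to express neuronal as well as kidney genes. Of 15 tested neuronal markers (18 listed), 7 were held higher and 4 held lower. Their summed level was 442.5 to 461.3 CPM in the controls and 301.0 to 320.3 CPM in the knockout. NEFM alone stood at 262.0 to 277.8 CPM in the controls and at 32.1 to 62.8 CPM in the knockout. It fell by more than the sum did, so the other members together were higher in the knockout. NEFH, the heavy neurofilament chain, was at 0 to 0.313 CPM in the controls and at 1.54, 1.24, 1.12 and 1.11 CPM in the knockout (change 5.25, SE 0.738, adjusted p 1.66e-07, and 2.59 in batch 5), opposite to NEFM. The size of the NEFH change is imprecise, since the 4 controls held 13 counts in all, against 127 in the knockout. SNAP25, a protein of synaptic vesicle fusion, was at 0.0495 to 0.195 CPM in the controls and at 3.28, 3.65, 1.86 and 2.30 CPM in the knockout (change 4.44). L1CAM, an axonal adhesion molecule named after its values were seen, rose by 2.10.

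Kidney progenitor factors were present in every library. Of 11 tested (12 listed), 3 were held higher and 4 held lower. EYA1, a co-activator of early kidney development, stood at 22.8, 21.7, 20.9 and 23.8 CPM in the controls and at 3.82, 4.75, 5.36 and 4.70 CPM in the knockout (change -2.38, SE 0.11, adjusted p 2.64e-19). Its partner SIX2, named after its values were seen, fell by 0.91 on the log2 scale, while OSR1 (2.54) and PAX2 (1.25), earlier markers of the lineage, rose. Of 11 markers of differentiated tubules only LRP2 and CUBN passed the filter, and neither was called. Of 10 blood cell markers 3 passed the filter.

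BEX1, of the X-linked BEX and TCEAL family, stood at 4.17, 4.61, 4.87 and 4.24 CPM in the controls and at 0.193, 0.653, 0.259 and 0.310 CPM in the knockout (change -3.36, SE 0.308, adjusted p 1.55e-11). Of the 11 tested relatives (14 listed) 4 were held higher, among them TCEAL3 (1.12) and TCEAL1 (0.56), and 3 held lower. Their sequences are similar, so the assignment of reads is uncertain. Only 10 of 53 clustered protocadherins passed the filter. PCDHGC4 was the held member, at 0.365 to 0.892 CPM in the controls and 1.33 to 2.89 CPM in the knockout (change 2.03).

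Cytosolic ribosomal protein genes fell by small amounts in batches 3 and 4. Of 79 genes 72 were called lower and 1 higher, but 28 were held lower and 1 held higher, with a median of -0.292 in the fit and -0.0337 in batch 5. With upper quartile scaling 49 were called lower and 8 higher, with a median of -0.123, and without the batch term the median was -0.108. RPS2 stood at 4003, 4012, 4581 and 4679 CPM in the controls and at 2071, 2163, 2327 and 2305 CPM in the knockout (change -1.13, SE 0.0365, adjusted p 2.15e-23). RPL12 fell by 0.76 on the log2 scale. These genes have many processed pseudogenes, and the counting rule for shared reads is not given in the sources used here. The summed level was 82337 to 101215 CPM in the controls and 74944 to 82605 CPM in the knockout, so the ranges overlap.

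Mitochondrially encoded mRNAs showed no common direction in cytoplasmic RNA, with 7 of 13 lower, 3 higher, and 1 and 3 held. In nuclear RNA all 13 were called higher, with a median of 0.729. In total RNA 3 were called higher and 1 lower. The source of the nuclear difference was not tested. The cytoplasmic median was -0.154 in the fit, 0.118 in batch 5, 0.0142 with upper quartile scaling and 0.0258 without the batch term. MT-CO1 was held lower (-0.45, against 0.54 in nuclear RNA) and MT-ND3 and MT-ND2 held higher (0.44 and 0.40). The summed cytoplasmic level of the list was 70604 to 79865 CPM in the controls and 66459 to 83138 CPM in the knockout.

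Nuclear-retained noncoding RNAs were higher in the cytoplasmic fraction of the knockout. All 7 tested (10 listed) rose, and 6 were held. MALAT1, a nuclear speckle RNA, stood at 25.4, 22.8, 20.8 and 22.2 CPM in the controls and at 101.4, 93.2, 112.9 and 63.5 CPM in the knockout (change 2.18, SE 0.147, adjusted p 7.59e-15). NEAT1, the scaffold of paraspeckles, stood at 107.1, 109.4, 134.9 and 136.6 CPM in the controls, at 592.8 and 583.3 CPM in batches 3 and 4 and at 199.9 and 203.3 CPM in batch 5 (change 2.12, and 0.73 in batch 5). MIAT rose by 1.63. The median of the 7 was 1.38 in cytoplasmic, 0.653 in total and 0.261 in nuclear RNA. In total RNA 7 were called higher and in nuclear RNA 2. NEAT1 changed by 2.18 in total and 1.66 in nuclear RNA, and MALAT1 by 1.76 and 1.00. The part of carry-over in the cytoplasmic rise was not tested.

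The same clone's total and nuclear RNA, with 2 knockout and 4 control libraries each, gave values from other libraries. These knockout libraries were of batches 3 and 4 and none was of batch 5, so the counts below cannot bear on batch 5. EGR1 and CHAC1, on the opposite side in batch 5, were called higher in both. Their changes were 2.57 and 1.39 in total RNA and 2.54 and 1.72 in nuclear RNA. In total RNA 8795 of 18745 genes were called (46.9%) and in nuclear RNA 9447 of 18732 (50.4%). By direction, 23.5% of all tested genes were higher and 23.4% lower in total RNA, and 25.1% and 25.3% in nuclear RNA. Of the 3706 genes held higher in the cytoplasm, 3633 were tested in total RNA, where 2662 (73.3%) were called higher and 4 lower, and 3631 in nuclear RNA, where 2673 (73.6%) were called higher and 52 lower. Of the 4032 held lower, 3000 of 4022 (74.6%) were called lower in total RNA and 2860 of 4024 (71.1%) in nuclear RNA, with 3 and 37 called higher. A library of the IGF2BP1 knockout is identical in the total and nuclear tables and enters the spread of those fits.

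The IGF2BP2 knockout, also 1 clone, with 2 cytoplasmic libraries in batches 3 and 4, shared its batches with the first 2 libraries of the IGF2BP3 knockout. The knockouts differed at 11425 genes (62.7%), 5694 higher (31.3%) and 5731 lower (31.5%) in the IGF2BP3 knockout. CTSF, a lysosomal cysteine protease, had the largest difference (7.27) among held genes reaching 10 CPM. It was at 0.152 and 0.169 CPM in the IGF2BP2 knockout, at 12.31 to 16.03 CPM in the controls and at 27.3, 23.8, 16.3 and 19.3 CPM in the IGF2BP3 knockout, so most of this difference lay on the side of the IGF2BP2 knockout.

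SFRP1 and MAL2 followed, with differences of 4.32 and 3.89. MAL2 was at 0.912 and 1.35 CPM in the IGF2BP2 knockout, above all 4 controls (0.260 to 0.530 CPM) and below all 4 IGF2BP3 knockout libraries. SFRP1 was at 1.102 and 1.1 CPM there, below all 4 controls (1.47 to 2.82 CPM). In the other direction ESRP2 differed by -6.03, at 18.4 and 17.9 CPM in the IGF2BP2 knockout, and MFAP2 by -5.30, at 17.41 and 16.03 CPM. These MFAP2 levels were above all 4 controls (10.95 to 12.83 CPM). Part of the SFRP1 and MFAP2 differences thus lay on the side of the IGF2BP2 knockout. FIRRE, a noncoding RNA of the X chromosome, differed by -2.69 and was at 11.97 and 12.1 CPM in the IGF2BP2 knockout. The decreases of ESRP2 and MFAP2 were thus seen in the IGF2BP3 knockout and not in the IGF2BP2 knockout, with the difference itself tested. IGF2BP1 did not pass the test of this difference (-0.02, SE 0.036, adjusted p 0.657). Apart from IGF2BP1, these genes were chosen for the largest differences between the knockouts. Other named genes moved in both. LRATD2 was at 23.8 and 21.1 CPM in the IGF2BP2 knockout (327.1 to 488.4 CPM in the controls). MYD88 was at 3.99 and 4.82 CPM there (controls 12.3 to 16.4 CPM). NEAT1 was at 513.8 and 524.6 CPM (controls 107.1 to 136.6 CPM). EYA1, at 27.8 and 26.3 CPM, did not fall there. How many changes were shared was not counted.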

How the data were processed

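The authors deposited raw read counts per gene for each RNA kind and FPKM values scaled for length and depth. STAR, featureCounts, DESeq2 1.44.0 and GRCh38 are named, without roles, per the submitters' processing notes. The annotation and the use of strand in counting are not given in the sources used here, so reads of overlapping and antisense genes cannot be told apart. Per the labels, the libraries were stranded poly(A) libraries read as pairs of 50 bases.

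From the counts, all 12 cytoplasmic libraries entered 1 edgeR 4.0.16 quasi-likelihood fit (R 4.3.3, TMM, filterByExpr) with terms for batch and genotype. Batch 5 against the 4 controls came from a fit of group means without a batch term. Total and nuclear RNA had fits of their own, with 10 libraries each. The threshold was a Benjamini-Hochberg adjusted p of 0.05. Log2 values of FPKM (limma 3.58.1) and DESeq2 1.42.0 served as alternatives only. Of 62703 identifiers 20403 had no name in the file, and positions came from GENCODE 29, which holds 17513 of the 18212 tested. The comparison and the lists were chosen with earlier results of these data known. Named genes were the 3 IGF2BP genes; the 8 higher and 8 lower held genes of largest change with at least 10 CPM in the higher group; up to 3 held genes per list with at least 1 CPM; the 3 higher and 3 lower that changed most among those on the opposite side in batch 5; and the 3 higher and 3 lower in the comparison of knockouts. The batch labels pair the libraries of batches 3 and 4, whose deviations correlated at 0.00953 across 14623 genes. On simulated counts of 18212 genes, the fit with batch recovered 85% of 1.5-fold and 95% of 2-fold changes, and the batch 5 fit 90% and 98%. The simulation had no batch effect, 1 spread for all genes and 100 changed genes for each fold. That spread was the one of the fit with batch (2.89%), while the group fit had 5.64%. These percentages check the code and do not give the recovery in the real libraries, where batch 5 is confounded with genotype. Some items are not reported here.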

Additional observations from a re-analysis of the deposited data

Results flagged for a closer look

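Groups of 4 libraries were screened for a library far from the other 3, over 166 groups of named genes. Chance alone marks about 1 in 20 such groups. IGF2BP3 RNA in control library 1 was 74.85 CPM against 68.37 to 69.17 CPM in the other 3 controls, a gap of 0.876 of the group's range. All 4 knockout libraries, at 25.1 to 30.6 CPM, lay below each control. FIRRE in knockout library 2 was 1.616 CPM against 2.082 to 2.121 CPM in the other 3 knockout libraries, a gap of 0.923 of the range.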

How the results depend on the processing

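The number of genes called ranged from 9988 to 11734 when a library was left out, and was 9148 with DESeq2, 9253 without the batch term and 11587 with batches 3 and 4 only, against 11781. Held genes ranged from 6956 to 8316 without a library, batch 5 calls from 7090 to 9422, calls against the IGF2BP2 knockout from 9409 to 11330, and the IGF2BP3 change from -1.25 to -1.16. Adding an absolute log2 change of at least 1 left 2317 held genes. Comparing batch 5 with the mean of the controls gave 9604 held genes and with controls 1 and 2 alone 9082.

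Upper quartile scaling gave 64.6% higher among the calls, against 48.6%, and 62.1% higher among held genes, against 47.9%; it kept 3706 of 3706 higher and 2975 of 4032 lower held genes, and none reversed. IGF2BP3 RNA changed by -0.88 and -0.27 with limma on log2(FPKM + 0.1) and log2(FPKM + 1).

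Replicate numbers do not pair the libraries: deviations of same-numbered libraries correlated at -0.423, -0.365, -0.345 and -0.406. With the number as a replicate block, 8627 genes were called, IGF2BP3 changed by -1.34 and CHAC1 by -0.0397 (adjusted p 0.946), reversed from 1.61; EGR1, STUM, ODC1, PNO1 and NHP2 were then not called. Without the batch term CHAC1, STUM, ODC1, PNO1 and NHP2 were not called either. These genes had batch 5 on the opposite side, and the batch 5 libraries enter those fits. Over named genes and alternatives, 1546 values of the main contrast kept direction and call, 10 lost the call and 1 reversed. In batch 5, 1216 kept both, 18 lost and 10 gained the call. All 102 in the comparison of knockouts kept both. With 16720159 counts in the shallowest library, a count of 0 allows up to 3 counts.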
